A study of Homo sapiens with 15 samples.

Results

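Collagen genes were taken from the deposited table as every gene whose symbol is COL, a number, A and a number, which gave 44 genes of 17999. By the structure of the protein they were grouped into 11 fibrillar genes, 6 basement membrane genes (type IV), 10 genes of fibril-associated collagens with interrupted triple helices (FACIT) and 17 other genes. Collagens are secreted as trimers of 3 chains, in some types of 1 gene product and in others of products of several genes. Fibrillar collagens form the cross-banded fibrils of tendon, bone, cartilage, skin and muscle connective tissue, and FACIT collagens sit on the surface of these fibrils. Type IV collagen builds the sheet-like network of basement membranes, which surrounds each muscle fibre and underlies the neural tube, and type VI collagen forms beaded filaments at the edge of that sheet.

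RNA was measured by mRNA sequencing in 15 bulk cultures of human cells, all labelled wild type. Muscle was a skeletal muscle induction of the HUES9 line, with 1 library at day 50 and 1 at day 40. Ventral neurons and dorsal neurons, labelled as neural inductions, had 1 H1 and 1 HUES9 library each. The 7-day inductions labelled RASS and RABC, abbreviations that the labels do not explain, are labelled neuron progenitors and also had 1 library of each line. Self-renewing neuromesodermal progenitors (srNMPs, cells able to form both neural tube and muscle) were sampled at passage 25 and at passage 8 in each line, and their labels also list neural induction as the treatment. Embryonic stem cells (ESCs) were 1 uninduced HUES9 library. H1 and HUES9 are established human ESC lines. Replicates of a group are therefore its lines, so p-values measure only the spread between these libraries, and the muscle and ESC libraries have no replicate of their own.

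The labels were set against marker genes. All 8 skeletal muscle markers reached 1 FPKM in both muscle libraries, and their summed level was 4661 FPKM at day 50 and 3013 FPKM at day 40, against 0.881 to 13.1 FPKM in the 13 other libraries. All 6 neuron markers reached 1 FPKM in all 4 neuron libraries, where they summed to 1140 to 1476 FPKM. They summed to 408 to 796 FPKM in the RASS and RABC libraries and 143 to 397 FPKM in srNMPs. The 5 neural progenitor markers separated the states less well. They summed to 506 to 968 FPKM in RASS and RABC libraries, 200 to 511 FPKM in srNMPs and 243 to 408 FPKM in neurons. In muscle they summed to 598 FPKM at day 50 and 421 FPKM at day 40. Pluripotency markers summed to 1525 FPKM in the ESC library and to 0.537 to 56.0 FPKM elsewhere. Of 5 neuromesodermal markers, 4 reached 1 FPKM in every srNMP library, and the exception, CDX2, was at 0.00615 FPKM in the H1 library of passage 8 and at 11.5 to 39.0 FPKM in the other srNMP libraries. The RASS libraries went against their line labels: their HUES9 minus H1 differences correlated across genes at -0.53 to -0.17 with those of the other 5 groups, whereas the 10 remaining pairs of groups gave 0.07 to 0.38. They are called the RASS libraries labelled H1 and HUES9, and results that rest on them are given with their lines exchanged or without them where that changed a call. Relative depth, estimated from the lowest values, was 0.954 to 1.051 of the mean, and 10785 to 12102 genes reached 1 FPKM per library.

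Collagen RNA was highest in muscle. The 44 genes summed to 13387 FPKM at day 50 and 21014 FPKM at day 40, which was 4.38% and 7.15% of all FPKM in those libraries. Elsewhere the sum was 215 ± 64.9 FPKM in neurons, 251 ± 41.4 FPKM in the progenitors of the RASS and RABC inductions and 329 ± 72.1 FPKM in srNMPs (SD, n = 4 libraries each), and 293 FPKM in the ESC library. No library outside muscle gave collagens more than 0.112% of its FPKM. FPKM is scaled to transcript length and to mapped fragments, so levels of different genes can be set side by side, although the lengths used were not given. In bulk cultures, fewer cells of a type and less RNA per cell cannot be told apart.

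**Figure D1:**
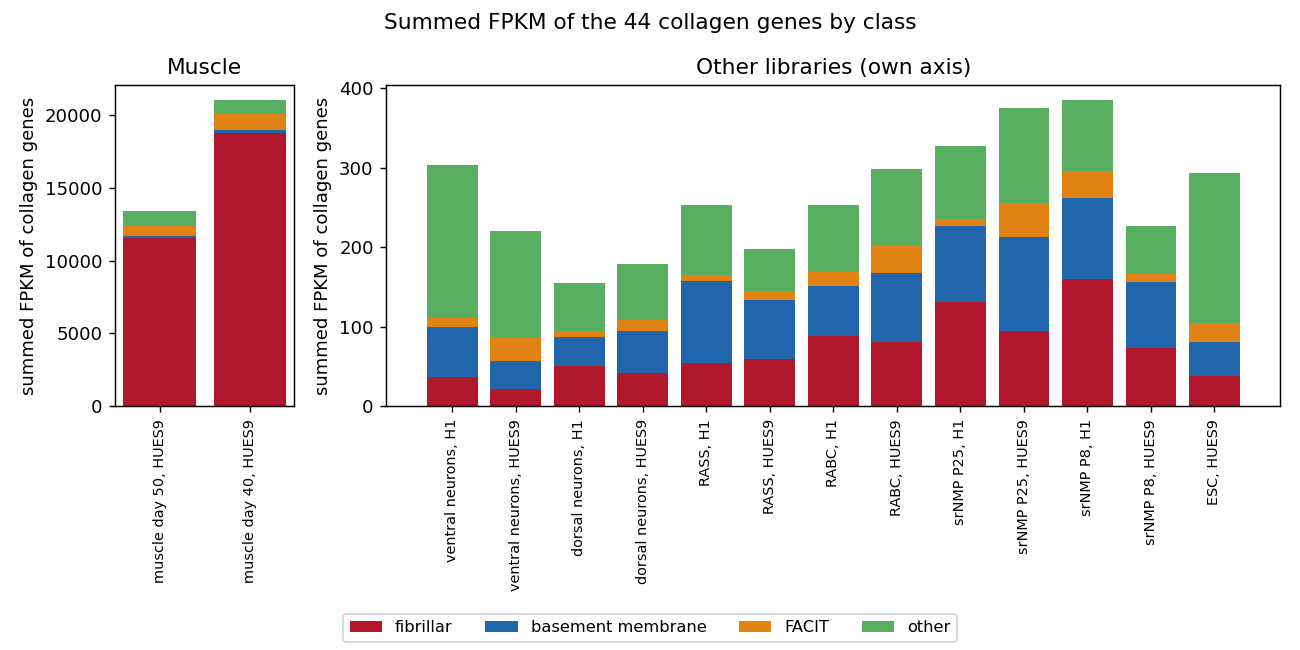
Summed FPKM of the 44 collagen genes in each library, stacked by class, with muscle on its own axis (left) and the 13 other libraries on a smaller axis (right). Fibrillar genes fill most of the muscle bars, whereas the other bars divide between fibrillar, basement membrane and other genes.

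The make-up of the sum differed as well. Fibrillar genes held 86.4% and 89.4% of collagen FPKM in muscle at day 50 and day 40, against 9.70% to 32.8% in neurons, 21.6% to 35.01% in progenitors, 25.1% to 41.4% in srNMPs and 12.9% in ESCs. Basement membrane genes held 1.12% and 0.783% in muscle, although their summed level there, 149 and 164 FPKM, was above every other library (34.8 to 119 FPKM). Outside muscle the most abundant collagen was 1 of 3 genes: COL6A1 in all 4 neuron libraries, the ESC library and the H1 RABC library, COL4A2 in both RASS libraries, the HUES9 RABC library and both HUES9 srNMP libraries, and COL2A1 in both H1 srNMP libraries.

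**Figure D2:**
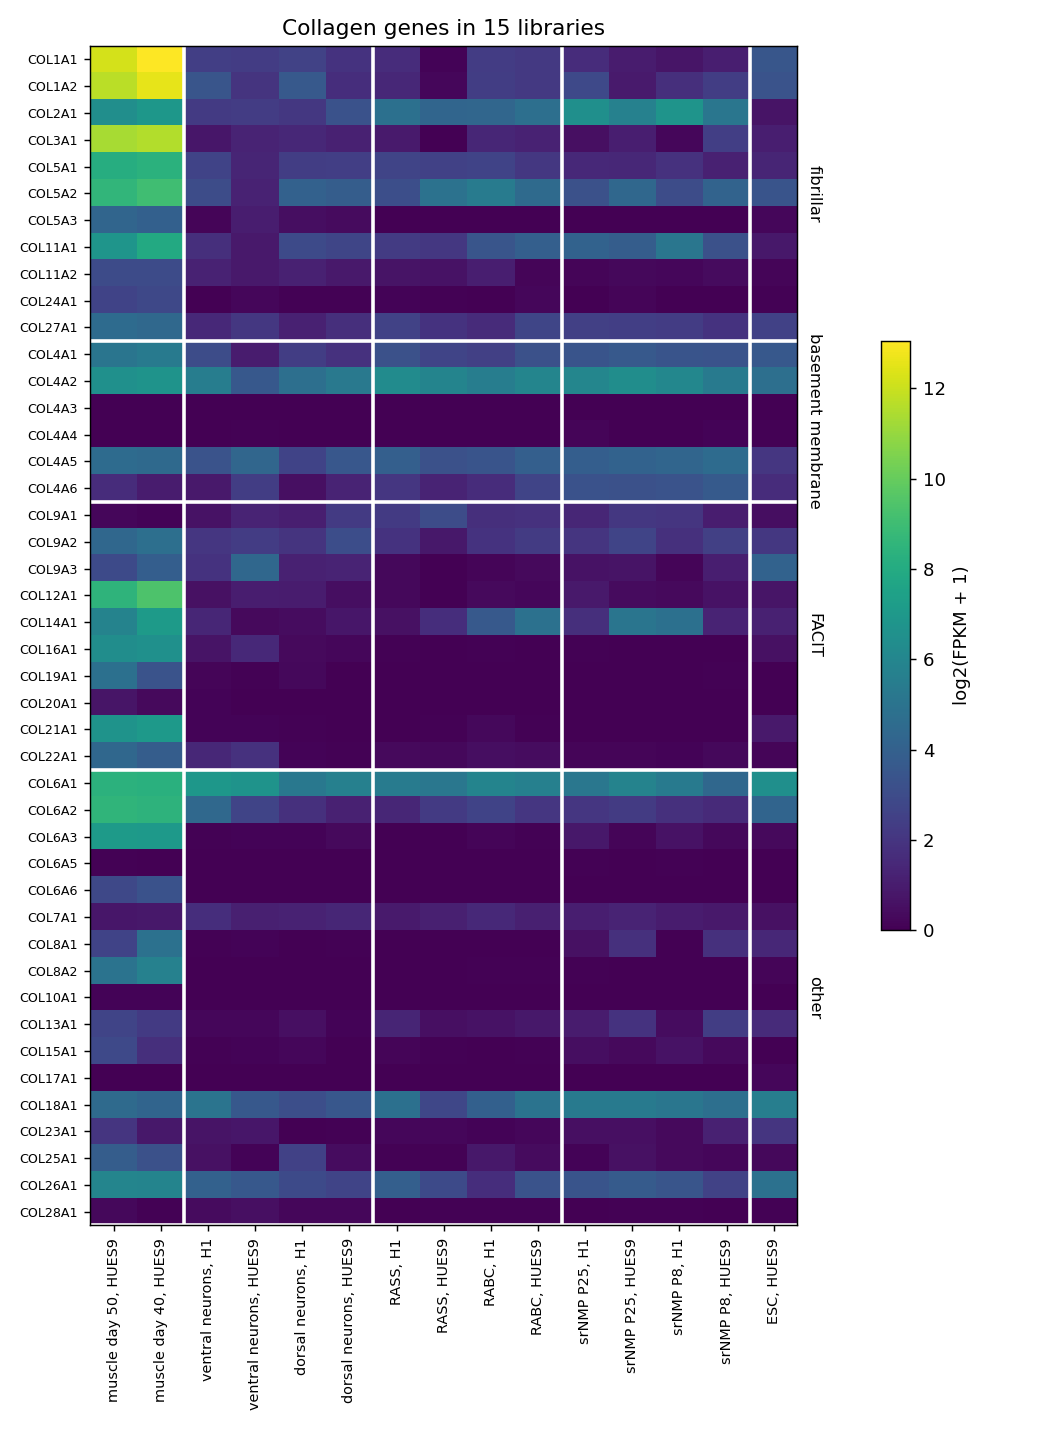
Level of each collagen gene (rows, by class) in each of the 15 libraries (columns), as log2(FPKM + 1). Muscle is bright across fibrillar and FACIT rows, COL4A2 and COL6A1 are visible in every column, and 7 rows stay below 1 FPKM throughout.

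Of the 44 genes, 37 reached 1 FPKM in at least 1 library and were tested, namely all 11 fibrillar, 4 basement membrane, 9 FACIT and 13 other genes. The 7 left out were COL4A3, COL4A4, COL20A1, COL6A5, COL10A1, COL17A1 and COL28A1, and the highest value among them was 0.694 FPKM, for COL20A1 in muscle at day 50. Changes below are differences on the log2(FPKM + 1) scale, which understates changes of weakly expressed genes, and calls were made by limma where the Benjamini-Hochberg adjusted p over 14129 genes was under 0.05. Against srNMPs, 28 collagen genes were higher in muscle and 2 were lower, where 18.2% of all tested genes were higher and 31.6% lower (49.8% in either direction). Against neurons, 31 were higher and 1 was lower, where 14.6% of all tested genes were higher and 31.9% lower (46.5% in either direction). The median change of the 37 genes was 3.06 against srNMPs and 3.18 against neurons, beside -0.22 and -0.34 over all tested genes.

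These counts need their filter beside them. A set of 7 collagen genes (COL24A1, COL19A1, COL21A1, COL6A3, COL6A6, COL8A2 and COL15A1) passed 1 FPKM in muscle alone and so had to differ, as did 457 of all tested genes. Their p-values are therefore not given. Among the other 30 collagen genes, 21 were higher and 2 lower in muscle than in srNMPs, where 15.5% of the 13672 tested genes that reached 1 FPKM outside muscle were higher and 32.7% lower. Against neurons, 24 of the 30 were higher and 1 was lower, where 11.8% of those genes were higher and 33.0% lower. COL23A1, called higher than in srNMPs, overlapped them in single libraries. That call was lost with an offset of 0.1 FPKM, under quantile normalization and with the muscle days as 1 group. It was also lost with only the libraries compared, and without the day 50 library or the HUES9 srNMP library of passage 25. Its call against neurons was lost without the day 50 library. Both muscle libraries lay above all 13 others for 21 of the 30 genes, which held for 8.33% of the 13672; with the 7 genes included it was 28 of 37, beside 11.1% of all tested genes. Both lay below all others for COL9A1 alone, which held for 21.9% of all tested genes. Since the day 50 and day 40 libraries stand for muscle and have no replicates, the standard errors below come from the spread of the other groups, and for genes near 0 there they say little about how muscle cultures vary.

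Genes of other connective tissue cells moved with the muscle libraries too. The 7 fibroblast markers in the table summed to 172 and 215 FPKM in muscle at day 50 and day 40, against 3.65 to 118 FPKM elsewhere, and 6 of the 7 were above all other libraries; PDGFRA, a receptor of connective tissue cells, was at 55.0 and 52.1 FPKM in muscle and at most 2.28 FPKM elsewhere. The 4 tendon markers summed to 344 and 465 FPKM in muscle, against 1.40 to 7.08 FPKM elsewhere, nearly all of it TNMD at 328 and 437 FPKM. The 7 cartilage and bone markers summed to 9.49 and 26.1 FPKM in muscle, within the 4.47 to 76.8 FPKM of the other libraries, and 3 of the 7 (ACAN, MATN1 and MATN3) were above all other libraries. Levels within this list were uneven: ACAN was at 3.28 and 18.5 FPKM, CNMD at 0 and 0.0198 FPKM and SP7 at 0.0345 and 0.316 FPKM. These single members do not stand for the whole list. The part of such cells in the collagen levels of muscle was not tested.

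Among fibrillar collagens, types I and III led. COL1A1, which encodes the pro-alpha 1 chain of type I collagen of bone, tendon and skin, was at 4699.9 FPKM at day 50 and 8504 FPKM at day 40 in muscle, against 0.111 to 10.1 FPKM in the 13 other libraries (median 2.79). It was the highest value of any gene in the day 40 library and ranked 2 at day 50. COL1A2, the partner chain, was at 3346 and 5992 FPKM in muscle, against 0.152 to 11.4 FPKM elsewhere (median 3.43). COL3A1, whose homotrimer is laid down in extensible tissue and with type I, was at 2611 and 3016 FPKM in muscle and ranked 5 on both days. In the 13 other libraries it was at 0 to 4.41 FPKM (median 1.17), the 0 being the RASS library labelled HUES9. No library outside muscle approached either muscle library for any of these 3 genes. The changes against srNMPs were 11.72 ± 0.37 for COL1A1 (limma adjusted p = 4.64e-07), 10.66 ± 0.57 for COL1A2 (9.45e-06) and 10.22 ± 0.60 for COL3A1 (1.56e-05), as estimate ± SE. The changes against neurons were 10.54 ± 0.37 for COL1A1 (limma adjusted p = 8.97e-07), 10.10 ± 0.60 for COL3A1 (1.63e-05) and 9.97 ± 0.57 for COL1A2 (1.36e-05).

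Type V collagen, a minor fibrillar type that co-assembles with type I and limits fibril width, followed. COL5A1 was at 278 FPKM at day 50 and 327 FPKM at day 40 in muscle, against 1.28 to 5.35 FPKM elsewhere (median 3.39). Its changes were 6.95 ± 0.30 against srNMPs (limma adjusted p = 3.04e-06) and 6.27 ± 0.30 against neurons (5.49e-06). COL5A2 was at 383 and 531 FPKM in muscle but also reached 42.4 FPKM in the H1 RABC library, with a median of 13.5 and a lowest value of 1.40 FPKM outside muscle. Its change against neurons was 5.67 ± 0.75 (limma adjusted p = 0.000958). COL5A3, a type V chain of narrower distribution, was at 18.1 and 15.1 FPKM in muscle and at most 1.05 FPKM elsewhere. Neither muscle library overlapped the others for any of the 3 chains.

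Of the fibrillar genes linked to cartilage, COL2A1 overlapped srNMPs and the others did not overlap any other state. COL2A1, the main fibrillar collagen of cartilage and notochord, was at 85.8 and 121 FPKM in muscle at day 50 and day 40, against 91.0 and 51.7 FPKM (H1 and HUES9) in srNMPs at passage 25 and 108 and 33.8 FPKM at passage 8. COL2A1 was the only fibrillar gene not called between muscle and srNMPs; it was called higher in muscle than in neurons. COL11A1, a chain of the cartilage minor fibrillar type XI, was at 111 and 239 FPKM in muscle and at most 33.9 FPKM elsewhere, in an srNMP library. COL11A2, another type XI chain, was at 6.96 and 6.94 FPKM in muscle and at most 1.34 FPKM elsewhere. COL27A1, a fibrillar gene of cartilage, was at 22.6 and 20.3 FPKM in muscle against 1.29 to 5.65 FPKM elsewhere, and COL24A1 was at 5.27 and 6.08 FPKM against at most 0.169 FPKM. COL11A1, COL11A2 and COL27A1 were called higher in muscle in both comparisons. COL24A1 was tested through muscle alone and so had to differ. The COL11A1 call against srNMPs was lost when only the libraries compared were fitted.

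**Figure D3:**
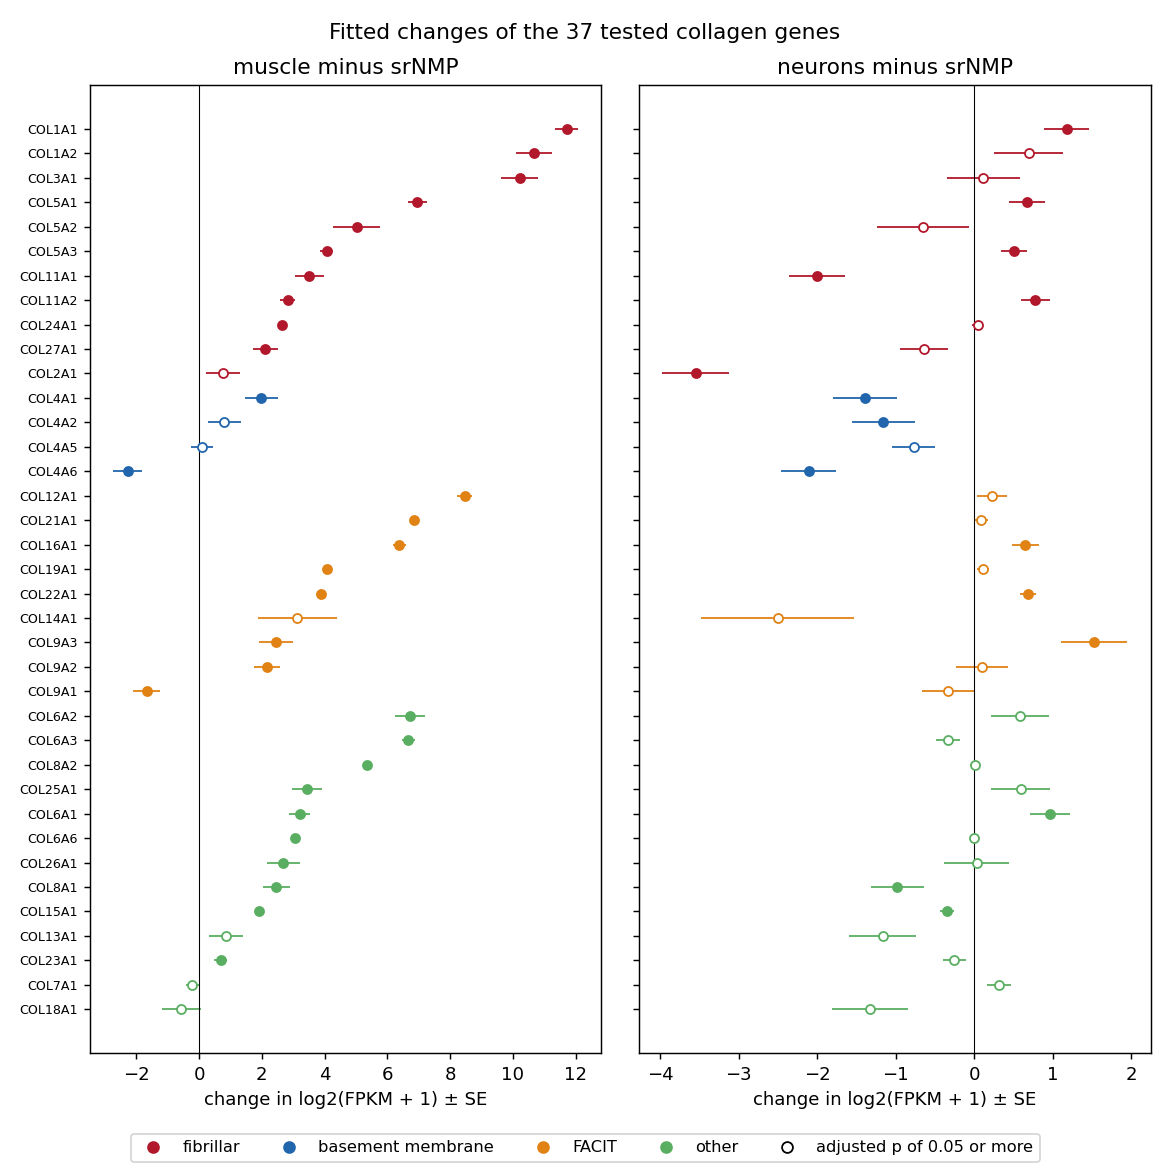
Fitted change of each of the 37 tested collagen genes for muscle minus srNMPs (left) and neurons minus srNMPs (right), on the log2(FPKM + 1) scale with SE, coloured by class; filled points were called by limma at an adjusted p under 0.05. The axes differ: changes in muscle reach 11.72, those in neurons run between -3.55 and 1.53.

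Basement membrane genes had the smallest median change of the 4 classes in muscle against srNMPs, 0.45. COL4A2, a chain of the ubiquitous type IV trimer, was at 91.4 FPKM at day 50 and 102 FPKM at day 40 in muscle. In srNMPs it was at 62.9 and 82.6 FPKM (H1 and HUES9) at passage 25 and at 65.9 and 39.9 FPKM at passage 8. Both muscle values were above every other library, but the change against srNMPs was 0.80 ± 0.52 and was not called (limma adjusted p = 0.242). Against neurons, where COL4A2 was at 45.3 and 10.9 FPKM in ventral and 26.5 and 38.0 FPKM in dorsal cultures (H1 and HUES9), the change was 1.96 ± 0.52 (limma adjusted p = 0.019). Without the day 40 library this call was lost (limma adjusted p = 0.0656), as it was when only the libraries compared were fitted (0.121). COL4A1, its partner, was at 33.2 and 41.2 FPKM in muscle and at most 11.6 FPKM elsewhere, and it was called higher in both comparisons, though not against srNMPs without the day 40 library or when only the libraries compared were fitted.

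The X-linked pair of type IV genes moved apart. COL4A5, a type IV chain best known from the filtering membrane of the kidney, was at 22.6 and 20.7 FPKM in muscle at day 50 and day 40, inside the 14.1 to 22.8 FPKM of srNMPs, and was called in neither muscle comparison. It was called higher than in neurons without the cell line term, under quantile normalization, and with the RASS lines exchanged or RASS left out. COL4A6, its neighbour, whose chain assembles with that of COL4A5 in smooth muscle and some epithelia, was at 2.21 and 0.988 FPKM in muscle, against 8.64 and 8.37 FPKM (H1 and HUES9) in srNMPs at passage 25 and 9.08 and 11.8 FPKM at passage 8. These groups did not overlap, and the change was -2.28 ± 0.45 (limma adjusted p = 0.0053). In neurons COL4A6 was at 0.430 to 4.16 FPKM, which overlapped muscle, and it was not called between muscle and neurons.

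Type IV genes lie in pairs that are read away from each other from a shared region, so the DNA between the pairs is shown for those with data above the limit. RefSeq promoters (build GRCh38.p14) were matched by symbol for 32 of the 44 genes; none was in the table for COL14A1, COL1A1, COL1A2, COL20A1, COL22A1, COL2A1, COL3A1, COL5A2, COL6A1, COL6A5, COL8A1 and COL9A3. The annotated starts were 126 bases apart for COL4A1 and COL4A2, 418 for COL4A4 and COL4A3 and 379 for COL4A6 and COL4A5. The first line below is the whole stretch between COL4A1 and COL4A2 on the plus strand (chr13:110307158-110307283), and the next are the 250 bases upstream of COL4A5 (chrX:108439588-108439837, plus strand) and of COL4A6 (chrX:108439459-108439708, minus strand), which overlap each other. The last are the 250 bases upstream of COL12A1 (chr6:75206054-75206303, minus strand) and COL5A1 (chr9:134641553-134641802, plus strand), genes with large changes in muscle. Sequences run 5′ to 3′ along the strand named, and capitals mark GGGCGG (the GC box) and CCAAT (the CCAAT box) on either strand.
between COL4A1 and COL4A2: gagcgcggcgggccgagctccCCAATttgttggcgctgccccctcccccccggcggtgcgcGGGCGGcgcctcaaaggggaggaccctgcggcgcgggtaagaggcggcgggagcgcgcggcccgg
COL4A5 upstream: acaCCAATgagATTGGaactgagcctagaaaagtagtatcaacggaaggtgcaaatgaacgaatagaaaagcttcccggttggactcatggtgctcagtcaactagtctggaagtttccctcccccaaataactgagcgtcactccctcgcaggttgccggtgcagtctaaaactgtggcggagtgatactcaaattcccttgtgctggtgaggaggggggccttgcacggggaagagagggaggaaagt
COL4A6 upstream: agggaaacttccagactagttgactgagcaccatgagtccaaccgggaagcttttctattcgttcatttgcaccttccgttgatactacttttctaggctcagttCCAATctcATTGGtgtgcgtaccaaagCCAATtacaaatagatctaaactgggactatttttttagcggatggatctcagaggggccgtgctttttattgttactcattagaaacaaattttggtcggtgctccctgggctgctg
COL12A1 upstream: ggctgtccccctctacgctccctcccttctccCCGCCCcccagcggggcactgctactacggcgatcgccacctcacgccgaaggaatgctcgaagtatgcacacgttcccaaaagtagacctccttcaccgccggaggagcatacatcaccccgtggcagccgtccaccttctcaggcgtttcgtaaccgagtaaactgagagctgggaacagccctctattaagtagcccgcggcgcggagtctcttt
COL5A1 upstream: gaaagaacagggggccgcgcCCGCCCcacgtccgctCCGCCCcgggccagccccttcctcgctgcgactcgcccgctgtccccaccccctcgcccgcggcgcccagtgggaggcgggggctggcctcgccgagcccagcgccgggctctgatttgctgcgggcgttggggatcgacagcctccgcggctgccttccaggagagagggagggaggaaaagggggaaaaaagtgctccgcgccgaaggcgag

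The stretch between COL4A1 and COL4A2 held 1 GC box and 1 CCAAT box. The windows upstream of COL4A5 and COL4A6 held 2 and 3 CCAAT boxes and no GC box, COL12A1 held 1 GC box and COL5A1 held 2. As the windows of COL4A5 and COL4A6 overlap, the 2 boxes of COL4A5 are among the 3 of COL4A6. In the 250 bases upstream, GGGCGG was found on either strand for 18 of 32 collagen genes (56.25%), beside 42.31% of 27305 RefSeq promoters. CCAAT was found for 9 of 32 (28.12%, beside 33.04%) and TATAAA, the TATA box, for 5 of 32 (15.62%, beside 11.13%). Shared sites count for both genes of a pair: COL4A1 and COL4A2 for GGGCGG and CCAAT, and COL4A5 and COL4A6 for CCAAT. Letters alone do not show a bound site.

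FACIT genes summed to 674 and 1108 FPKM in muscle at day 50 and day 40, against 7.25 to 42.6 FPKM elsewhere. Their share of collagen FPKM was 5.04% and 5.27% in muscle and 8.02% in ESCs. It was 3.74% to 13.8% in neurons, 3.04% to 11.7% in progenitors and 2.64% to 11.3% in srNMPs. Outside muscle, COL14A1 reached 32.7 FPKM in an srNMP library and COL9A3 reached 19.2 FPKM in a neuron library. COL12A1, COL21A1 and COL16A1 were at most 1.81 FPKM there. COL12A1, which coats type I fibrils in tendon and muscle, was at 360 FPKM at day 50 and 689 FPKM at day 40 in muscle, against 0.0278 to 1.04 FPKM elsewhere (median 0.414). COL21A1, a FACIT member of vessel walls and other tissues, was at 102 and 127 FPKM in muscle, against 0 to 0.874 FPKM (median 0.0483). COL16A1, a fibril-associated member with wide distribution, was at 82.6 and 91.6 FPKM in muscle, against 0.00448 to 1.81 FPKM (median 0.0645). Muscle stood apart from every other library for all 3. Against srNMPs the changes were 8.46 ± 0.25 for COL12A1 (limma adjusted p = 3.27e-07) and 6.39 ± 0.22 for COL16A1 (7.55e-07), and against neurons 8.24 ± 0.25 (limma adjusted p = 4e-07) and 5.73 ± 0.22 (1.34e-06) for the same genes. The fitted differences of COL21A1, tested through muscle alone, were 6.85 against srNMPs and 6.76 against neurons.

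COL22A1, found at the myotendinous junction where muscle fibres meet tendon, was at 19.4 and 13.4 FPKM in muscle at day 50 and day 40 and at most 2.66 FPKM elsewhere. COL19A1, a FACIT member made by embryonic muscle cells in mice, was at 27.0 and 9.10 FPKM in muscle and at most 0.197 FPKM elsewhere. COL22A1 was called higher in muscle in both comparisons. COL19A1 was tested through muscle alone and so had to differ. COL14A1, which binds fibrils in tendon and skin, was at 56.3 and 138 FPKM in muscle but also at 32.7 FPKM in an srNMP library, and it was called against neurons but not against srNMPs. The call against neurons was lost without the day 40 library. A call against srNMPs was made without the cell line term, with the muscle days as 1 group, and without the H1 srNMP library of passage 8 or the HUES9 one of passage 25.

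The 3 genes of type IX collagen, the FACIT of cartilage, differed among themselves. COL9A2 was at 19.6 and 26.5 FPKM in muscle at day 50 and day 40, above the 0.814 to 7.41 FPKM of all other libraries. COL9A3 was at 6.60 and 13.7 FPKM in muscle, below the 19.2 FPKM of the HUES9 ventral neurons and the 16.4 FPKM of ESCs. COL9A1 was at 0.171 and 0.0771 FPKM in muscle, below the 0.410 to 7.14 FPKM of every other library (median 2.34), and was called lower in both comparisons; it lies under the level set for full statistics and is named here for its direction, after its values were seen. Its call against srNMPs was lost without the day 40 library, without the HUES9 srNMP library of passage 25 and when only the libraries compared were fitted. Its call against neurons was lost in 9 alternatives, among them the RASS lines exchanged, RASS left out and each muscle library left out.

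The chains of type VI collagen differed in where they were expressed. The usual trimer holds the chains of COL6A1, COL6A2 and COL6A3 and surrounds muscle fibres, and mutations in these genes cause human muscular dystrophies. COL6A1 was at 334 FPKM at day 50 and 308 FPKM at day 40 in muscle, and at 19.3 to 121 FPKM in the 13 other libraries (median 50.2). COL6A2 was at 370 and 343 FPKM in muscle, against 1.29 to 20.1 FPKM (median 3.23), and COL6A3 was at 138 and 130 FPKM, against 0.0132 to 0.809 FPKM (median 0.123). COL6A1 was thus expressed in every library, whereas COL6A3 stayed below 1 FPKM outside muscle. The changes of COL6A2 were 6.73 ± 0.48 against srNMPs (limma adjusted p = 4.55e-05) and 6.14 ± 0.48 against neurons (7.04e-05). The fitted differences of COL6A3, tested through muscle alone, were 6.67 against srNMPs and 7.00 against neurons. COL6A6, an alternative to the COL6A3 chain, was at 6.10 and 8.79 FPKM in muscle and at most 0.00620 FPKM elsewhere.

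The ratio of COL6A1 to COL6A2 was 0.904 and 0.897 in muscle at day 50 and day 40. In every other library COL6A1 was the higher of the pair, by 5.11-fold in ESCs to 38.9-fold in HUES9 dorsal neurons. The ratio of COL6A3 to COL6A1 was 0.414 and 0.422 in muscle and at most 0.0230 elsewhere. Other partner chains behaved differently. COL1A1 to COL1A2, whose products assemble as 2 to 1 in type I collagen, was 1.40 and 1.42 in muscle, while it ranged from 0.279 to 1.39 elsewhere. COL4A1 to COL4A2, also assembled as 2 to 1, was 0.364 and 0.405 in muscle and 0.0685 to 0.422 elsewhere, so COL4A2 was the higher gene in all 15 libraries. COL5A1 to COL5A2 was 0.725 and 0.616 in muscle and 0.0755 to 1.09 elsewhere. COL4A6 to COL4A5 was 0.0978 and 0.0477 in muscle, 0.0836 to 0.223 in neurons, 0.177 to 0.363 in progenitors and 0.495 to 0.612 in srNMPs.

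**Figure D4:**
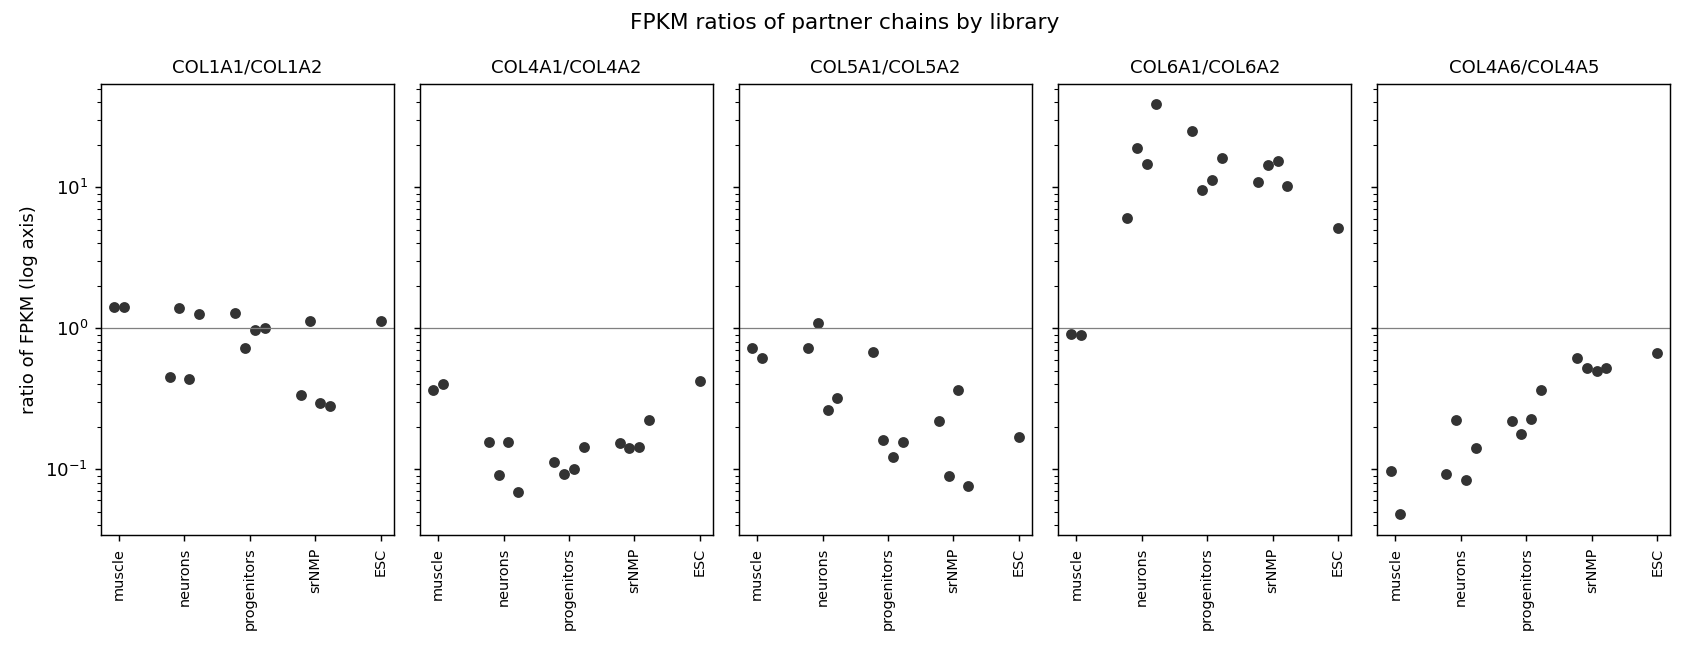
FPKM ratios of partner chains (log axis) in each library, by state; the line marks equal levels. The COL6A1 to COL6A2 ratio is near 0.9 in muscle and above 5 in every other library, and COL4A6 to COL4A5 is highest in srNMPs and ESCs.

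The remaining genes were mixed. COL8A2, a short-chain network collagen, was at 30.1 FPKM at day 50 and 52.9 FPKM at day 40 in muscle and at most 0.129 FPKM elsewhere, a fitted difference of 5.34 from srNMPs, and was tested through muscle alone. COL8A1, its partner, was at 5.21 and 28.7 FPKM in muscle and at most 2.50 FPKM elsewhere. COL26A1 was at 61.4 and 59.1 FPKM in muscle and reached 28.0 FPKM in ESCs. COL25A1, a transmembrane collagen needed for motor axons to enter developing muscle in mice, was at 13.2 and 8.52 FPKM in muscle, against 0.0483 to 4.80 FPKM elsewhere, with the highest of these in H1 dorsal neurons. COL13A1, a transmembrane collagen of the neuromuscular junction, was at 5.38 and 3.63 FPKM in muscle, which overlapped the 0.339 to 4.21 FPKM of srNMPs. COL15A1, of muscle and vessel basement membranes, was at 6.26 and 2.34 FPKM in muscle and at most 0.580 FPKM elsewhere. COL18A1, its relative and the source of endostatin, was at 21.7 and 17.6 FPKM in muscle, below the 25.8 to 39.4 FPKM of srNMPs, and was called in neither muscle comparison. COL7A1, the anchoring fibril collagen of skin, was at 0.756 and 0.765 FPKM in muscle against 0.486 to 2.27 FPKM elsewhere and was also not called.

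Day 50 and day 40 had 1 library each, so their difference has no test. Of 35 collagen genes at 1 FPKM or more on either day, 16 were higher at day 50 and 19 lower, with a median log2 difference of day 50 minus day 40 of -0.15, beside 0.08 over 11756 genes. Fibrillar genes were higher at day 50 for 3 of 11 and lower for 8, with COL1A1 at 0.553 and COL1A2 at 0.558 of their day 40 level. Of the 12 genes of the other class 9 were higher at day 50, as were 62.7% of all genes, and so were 8 of 8 skeletal muscle markers. Day 50 was at least 1 lower on the log2 scale for 3 collagen genes (COL8A1, COL11A1 and COL14A1), as it was for 1.00% of all genes. It was at least 1 higher for COL19A1, COL15A1 and COL23A1, the last at 3.03 and 0.784 FPKM, as it was for 0.868% of all genes. No rule picked these 6 genes in advance of their values.

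Neurons differed from srNMPs in both directions. Of the 37 genes, 8 were higher and 7 lower in neurons, where 28.8% of all tested genes were higher and 23.2% lower (52.1% in either direction). The median change was 0.03 beside 0.05 over all genes. Under quantile normalization the collagen split was 3 higher and 12 lower, so the count of higher genes depends on the scaling. The cartilage-type fibrillar genes COL2A1 and COL11A1 fell. COL2A1 was at 3.65 and 3.94 FPKM (H1 and HUES9) in ventral neurons and 3.37 and 8.87 FPKM in dorsal neurons, against 91.0 and 51.7 FPKM in srNMPs at passage 25 and 108 and 33.8 FPKM at passage 8. COL11A1 was at 2.40 and 0.830 FPKM in ventral and 6.75 and 5.56 FPKM in dorsal neurons, against 16.3 and 13.5 FPKM in srNMPs at passage 25 and 33.9 and 8.40 FPKM at passage 8. Neither gene overlapped between neurons and srNMPs. The changes were -3.55 ± 0.43 for COL2A1 (limma adjusted p = 0.000767) and -2.01 ± 0.36 for COL11A1 (0.00339).

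All 4 tested basement membrane genes were lower in the neuron mean, and 3 were called. COL4A6 averaged 1.73 ± 1.68 FPKM in neurons and 9.48 ± 1.59 FPKM in srNMPs (SD, n = 4 each) and fell by 2.11 ± 0.35 on the log2 scale (limma adjusted p = 0.00254). COL4A1 averaged 3.69 ± 2.58 FPKM in neurons and 9.93 ± 1.15 FPKM in srNMPs and changed by -1.39 ± 0.41 (limma adjusted p = 0.0253). COL4A2 was at 10.9 to 45.3 FPKM in neurons and 39.9 to 82.6 FPKM in srNMPs and changed by -1.16 ± 0.40 (limma adjusted p = 0.0459), with an overlap of single libraries. The COL4A2 call was lost in 12 alternatives, 7 of which left out 1 library and another both RASS libraries. It was lost without either HUES9 or H1 library of srNMP passage 25 or passage 8, without either dorsal library and without the HUES9 ventral library, with limma adjusted p of 0.0509 to 0.158. The COL4A1 call was lost without either dorsal library or either HUES9 srNMP library, with limma adjusted p of 0.0671 to 0.0837, and with all libraries rescaled to equal summed FPKM (0.0515). COL4A5, at 8.97 and 18.7 FPKM in ventral and 5.15 and 10.6 FPKM in dorsal neurons (H1 and HUES9), against 14.1 to 22.8 FPKM in srNMPs, was not called (limma adjusted p = 0.0501). It was called with an offset of 0.1 FPKM, under quantile normalization, and with the RASS lines exchanged or RASS left out. The same held when only the libraries compared were fitted and without the HUES9 ventral library.

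**Figure D5:**
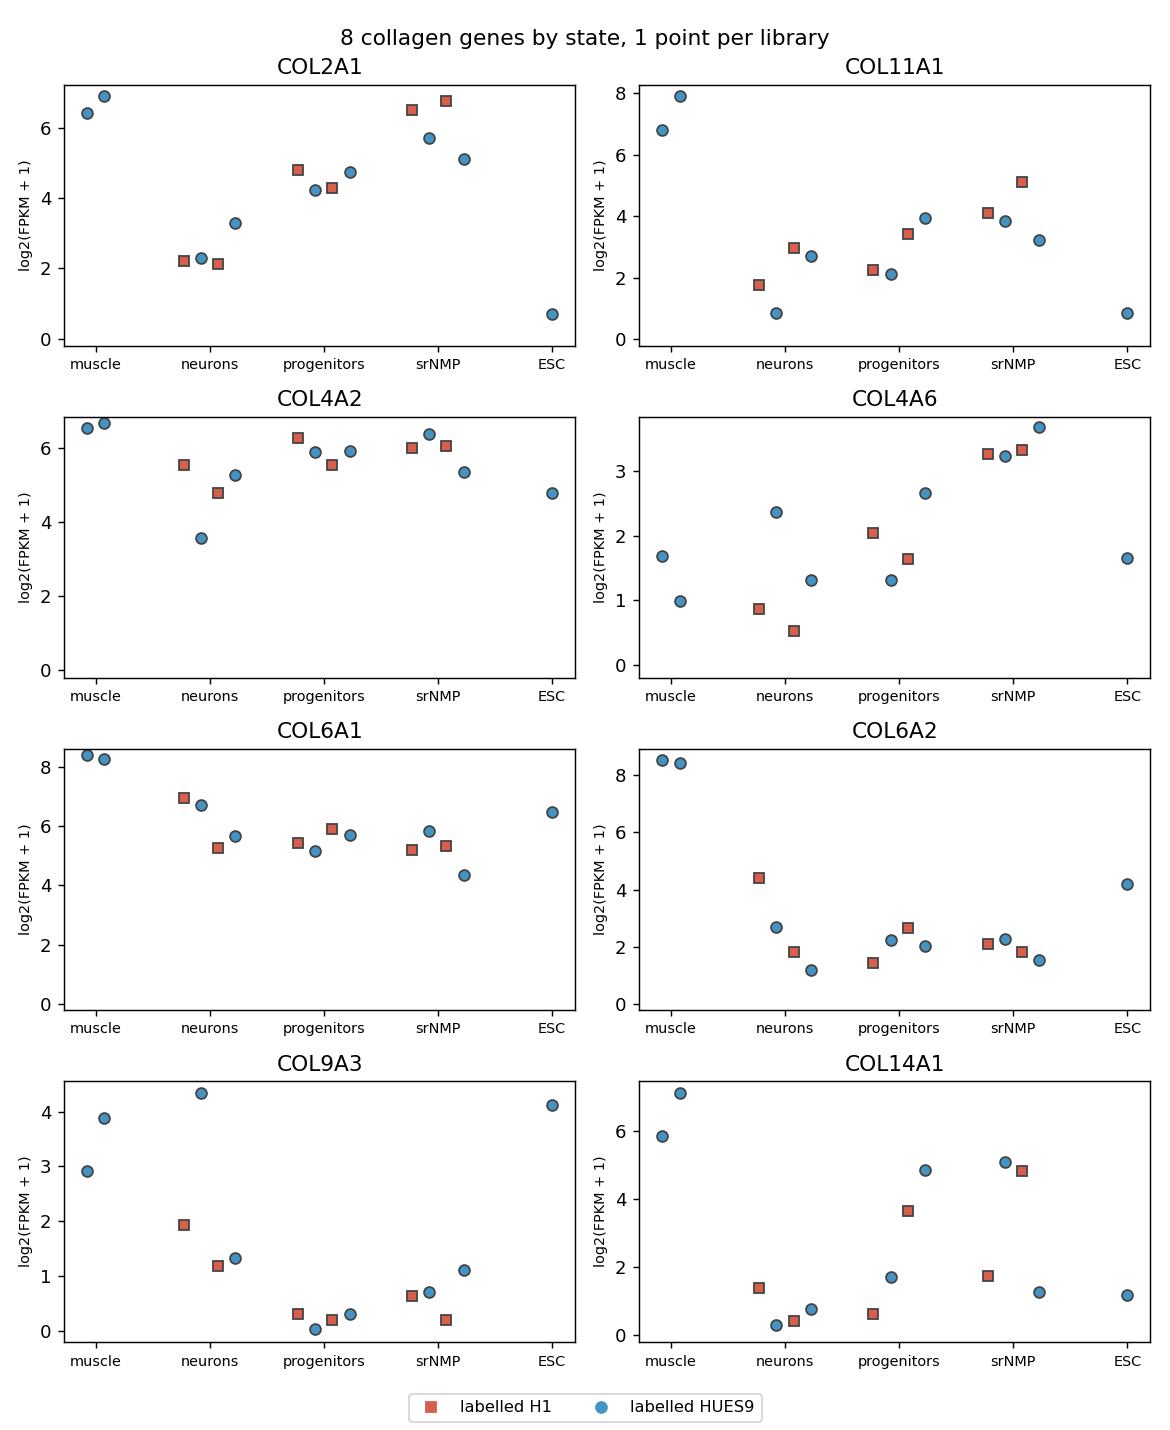
Level of 8 collagen genes as log2(FPKM + 1), 1 point per library, by state from muscle to ESCs and by labelled line (squares H1, circles HUES9); within a state the points run day 50 then day 40, ventral then dorsal, RASS then RABC, and passage 25 then passage 8. COL2A1, COL11A1 and COL4A6 are lower in all neuron points than in all srNMP points, COL6A2 is high in muscle, and COL14A1 spreads widely within srNMPs.

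Of the genes higher in neurons, COL6A1 was the most abundant. It was at 121 and 103 FPKM (H1 and HUES9) in ventral neurons and 36.9 and 50.2 FPKM in dorsal neurons, against 35.2 and 55.8 FPKM in srNMPs at passage 25 and 39.3 and 19.3 FPKM at passage 8. The ventral libraries were above all srNMP libraries and the dorsal libraries lay among them; the change was 0.97 ± 0.25 (limma adjusted p = 0.0168). This call was lost without the H1 srNMP library of passage 25 (limma adjusted p = 0.0598), the H1 ventral library (0.0538) or the HUES9 dorsal library (0.0632). COL9A3 was at 2.83 and 19.2 FPKM in ventral and 1.26 and 1.51 FPKM in dorsal neurons, against 0.145 to 1.16 FPKM in srNMPs. All neuron values were above all srNMP values, and the change was 1.53 ± 0.42 (limma adjusted p = 0.0196). It was lost under quantile normalization (limma adjusted p = 0.0695) and without the H1 dorsal library (0.0727), the H1 srNMP library of passage 8 (0.0574) or the HUES9 srNMP library of passage 25 (0.0656). The other genes called higher, COL1A1, COL5A1, COL5A3, COL11A2, COL16A1 and COL22A1, had neuron means of 0.471 to 4.04 FPKM, and the other genes called lower, COL8A1 and COL15A1, were at most 0.159 FPKM in neurons. COL5A1 lost its call in 13 alternatives, among them the RASS lines exchanged, RASS left out and 7 of the 8 single libraries of neurons and srNMPs left out (each but the HUES9 ventral library). COL5A3 lost it in 9, among them RASS left out and either dorsal library or any 1 srNMP library left out. COL8A1 lost it in 10, among them RASS left out and any 1 neuron library or either HUES9 srNMP library left out. COL16A1 lost it under quantile normalization and without the H1 dorsal or the HUES9 passage 25 srNMP library. COL15A1 lost it without the H1 srNMP library of passage 25, and COL11A2 under quantile normalization. COL14A1, the most abundant FACIT gene of srNMPs, averaged 0.729 ± 0.634 FPKM in neurons and 15.9 ± 16.3 FPKM in srNMPs, and its change of -2.51 ± 0.98 was not called (limma adjusted p = 0.067). Among the alternatives, COL13A1 was called lower in neurons with the RASS lines exchanged or RASS left out, and COL18A1 with RASS left out.

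No collagen gene was called between the 7-day progenitors and srNMPs by limma (0 of 37), where 3.43% of all tested genes were (1.73% higher and 1.69% lower). By limma 8 of the 37 collagen genes had an unadjusted p under 0.05, as did 3379 of the 14129 tested genes. COL2A1 came between srNMPs and neurons. It was at 27.2 and 17.9 FPKM in the RASS libraries labelled H1 and HUES9 and 18.6 and 26.2 FPKM in the RABC libraries, all below the 33.8 to 108 FPKM of srNMPs, and the change was -1.51 ± 0.43 (limma adjusted p = 0.101). COL4A6 was at 3.13 and 1.48 FPKM in RASS and 2.11 and 5.30 FPKM in RABC libraries, also below all srNMP libraries. It was called only when the lines of the RASS libraries were exchanged or the RASS library labelled H1 was left out. COL4A2 averaged 60.2 ± 12.5 FPKM in progenitors and 62.8 ± 17.6 FPKM in srNMPs, a change of -0.04 ± 0.40 (limma adjusted p = 0.977). COL6A1 averaged 46.6 FPKM in progenitors and 37.4 FPKM in srNMPs, a change of 0.38 ± 0.25 (limma adjusted p = 0.401). COL14A1 averaged 10.5 ± 12.4 FPKM in progenitors, with a change of -0.53 ± 0.98 (limma adjusted p = 0.793), so its spread between libraries exceeded the difference.

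Compared with the ESC library, 3 collagen genes were higher and 5 lower in srNMPs, where 8.73% of all tested genes were higher and 7.93% lower (16.7% in either direction). COL2A1 was at 33.8 to 108 FPKM in srNMPs and 0.624 FPKM in ESCs, a change of 5.23 ± 0.70 (limma adjusted p = 0.00325). COL11A1 was at 8.40 to 33.9 FPKM in srNMPs and 0.807 FPKM in ESCs, a change of 2.99 ± 0.58 (limma adjusted p = 0.0153). COL4A5 was at 14.1 to 22.8 FPKM in srNMPs and 3.20 FPKM in ESCs, a change of 2.33 ± 0.45 (limma adjusted p = 0.0148). The cartilage-type fibrillar pair and COL4A5 were thus higher in every srNMP library than in the ESC library.

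In the other direction, COL9A3 was at 0.145 to 1.16 FPKM in srNMPs and 16.4 FPKM in ESCs, a change of -3.17 ± 0.69 (limma adjusted p = 0.0225). COL1A1 was at 0.690 to 2.16 FPKM in srNMPs and 10.1 FPKM in ESCs, a change of -2.57 ± 0.46 (limma adjusted p = 0.0114). COL6A2 was at 1.90 to 3.89 FPKM in srNMPs and 17.3 FPKM in ESCs, a change of -2.44 ± 0.61 (limma adjusted p = 0.0357). COL21A1 and COL23A1 were also called lower, at 0.874 and 3.07 FPKM in ESCs. The COL9A3 call was lost without the HUES9 srNMP library of passage 25 (limma adjusted p = 0.0674) and the COL6A2 call without any 1 of the 4 srNMP libraries (0.0552 to 0.0635). When only the srNMP and ESC libraries were fitted, COL2A1 and COL21A1 stayed called and the other 6 did not. COL6A1 (-1.36 ± 0.42, limma adjusted p = 0.0667) and COL4A2 (1.03 ± 0.66, limma adjusted p = 0.34) were not called. COL4A6 was called higher in srNMPs only with the RASS lines exchanged or RASS left out.

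Between passage 25 and passage 8 srNMPs, 0 of 37 collagen genes were called by limma and 0 had an unadjusted p under 0.05, where 0.00% of all tested genes were called and 255 genes had an unadjusted p under 0.05. The changes were 0.17 ± 0.60 for COL2A1, 0.48 ± 0.57 for COL4A2, 0.66 ± 0.36 for COL6A1 and 0.36 ± 1.39 for COL14A1, each with a limma adjusted p of 1. The standard errors leave room for sizeable changes. COL14A1 was at 2.36 and 32.7 FPKM (H1 and HUES9) at passage 25 and at 27.1 and 1.43 FPKM at passage 8, so its high library belonged to a different line at each passage.

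RASS and RABC inductions gave 0 called collagen genes, where 0.517% of all tested genes were called (0.318% higher and 0.198% lower). By limma 2 of the 37 genes, COL1A1 and COL11A1, had an unadjusted p under 0.05, as did 1206 of the 14129 tested genes. COL1A1 was at 2.17 and 0.111 FPKM in RASS libraries labelled H1 and HUES9 and at 3.96 and 3.46 FPKM in RABC libraries. COL11A1 was at 3.76 and 3.35 FPKM in RASS and 9.72 and 14.4 FPKM in RABC libraries. Both were lower in each RASS library than in each RABC library. Of the most abundant gene of each class, COL5A2 changed by -0.92 ± 0.83, COL4A2 by 0.36 ± 0.57, COL14A1 by -3.07 ± 1.39 and COL6A1 by -0.49 ± 0.36, with limma adjusted p of 0.628 to 1.

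Ventral and dorsal neurons differed in 1 collagen gene, COL22A1, which was higher in ventral neurons, where 1.47% of all tested genes were higher and 0.573% lower (2.04% in either direction). COL22A1 was at 1.76 and 2.66 FPKM (H1 and HUES9) in ventral and 0.104 and 0.0411 FPKM in dorsal neurons, and lies under the level set for full statistics; it is named for being the count, after its values were seen. It was not called when only the neuron libraries were fitted. By limma 7 of the 37 genes had an unadjusted p under 0.05, as did 2333 of the 14129 tested genes. These were COL22A1 and 6 others, among them COL6A1 and COL6A2. COL6A2 was at 20.1 and 5.39 FPKM in ventral and 2.54 and 1.29 FPKM in dorsal neurons, above in both lines, and was called when the RASS lines were exchanged or the HUES9 ventral library was left out. COL6A1 changed by 1.36 ± 0.36 (limma adjusted p = 0.127), COL9A3 by 1.88 ± 0.59 (0.178), COL4A2 by -0.48 ± 0.57 (0.783) and COL5A2 by -1.80 ± 0.83 (0.346). Without the H1 ventral library COL9A3 was called (limma adjusted p = 0.0159).

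Collagen chains need hydroxylases, chaperones and proteases before they can form fibrils, and these genes were followed on a list of 38, of which 37 were tested. Of these, 5 (P4HA3, ADAMTS14, ITGA10, ITGA11 and DDR2) were tested through muscle alone. Among the other 32, 18 were higher and 1 lower in muscle than in srNMPs, beside 15.5% and 32.7% of the 13672 genes expressed outside muscle. Against neurons 22 of the 32 were higher and 2 lower, beside 11.8% and 33.0% of those genes. LOX, which cross-links collagen outside the cell, averaged 148 FPKM in muscle (n = 2), 0.774 FPKM in neurons and 0.536 FPKM in srNMPs (n = 4 each), with a change of 6.61 ± 0.41 against srNMPs (limma adjusted p = 2.02e-05). PCOLCE, the enhancer of the protease that removes the C-propeptide, averaged 319 FPKM in muscle, 1.34 FPKM in neurons and 5.30 FPKM in srNMPs, with a change of 5.73 ± 0.35 against srNMPs (limma adjusted p = 2.06e-05). The collagen receptors DDR2 and ITGA11 averaged 41.0 and 31.0 FPKM in muscle, against 0.0926 and 0.000629 FPKM in srNMPs. Leaving out P4HA3, all 8 prolyl hydroxylation genes were higher in muscle than in neurons, and 6 of them also than in srNMPs. LOXL3, of the cross-linking family, was the gene lower than in srNMPs (-1.44 ± 0.24, limma adjusted p = 0.00247), and with DDR1 (-2.29 ± 0.36, limma adjusted p = 0.0021), a collagen receptor kinase, it was also lower than in neurons.

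In neurons against srNMPs, 4 genes of the list were higher and 14 lower, 48.6% of the 37 genes beside 52.1% of all tested genes (28.8% higher and 23.2% lower). SERPINH1, the collagen-specific chaperone HSP47, averaged 23.2 FPKM in neurons and 93.4 FPKM in srNMPs (n = 4 each), a change of -2.08 ± 0.29 (limma adjusted p = 0.00127). FKBP10, a chaperone and prolyl isomerase of type I procollagen, averaged 31.6 FPKM in neurons and 96.8 FPKM in srNMPs, a change of -1.65 ± 0.11 (limma adjusted p = 0.000123). P3H1 and P3H3, prolyl 3-hydroxylases, changed by -1.44 ± 0.41 and -1.44 ± 0.26 (limma adjusted p = 0.0217 and 0.00344). DDR1 averaged 149 FPKM in neurons and 37.2 FPKM in srNMPs, a change of 1.99 ± 0.28 (limma adjusted p = 0.00134). LOXL1, an elastin cross-linker, averaged 7.26 and 3.31 FPKM in neurons and srNMPs, a change of 0.81 ± 0.17 (limma adjusted p = 0.00692).

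In the remaining comparisons 2 genes of the list were called for progenitors (beside 3.43% of all tested genes), 4 for srNMPs against ESCs (16.7%) and 2 for ventral against dorsal neurons (2.04%). In progenitors against srNMPs ITGA1, a collagen receptor subunit, was higher and CRTAP, a partner of P3H1, was lower. In srNMPs against ESCs, FKBP10 and COLGALT2, a galactosyltransferase of collagen, were higher, and P3H2 and SERPINH1 were lower. SERPINH1 averaged 93.4 FPKM in srNMPs and was at 262 FPKM in the ESC library. In ventral against dorsal neurons FKBP10 and LOXL1 were higher. Passage 25 against passage 8 and RASS against RABC gave 0 called genes of this list by limma, beside 0.00% and 0.517% of all genes. The list then had 0 and 7 of 37 genes at an unadjusted limma p under 0.05, beside 255 and 1206 of the 14129 tested genes.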

How the data were processed

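Poly(A) RNA libraries (TruSeq Stranded mRNA, NovaSeq) were made from total RNA, per the labels' protocols. Trimmomatic, HISAT2, HTSeq and Cufflinks with build hg18 are named in the submitters' processing notes; versions and settings are not given in the sources used here. The authors deposited FPKM (fragments scaled to transcript length and to mapped fragments) for 17999 symbols; 1 further column matched no sample and was not used. Depth was estimated from 652 genes whose values up to 0.1 FPKM were whole multiples of 1 fragment (96.0% within 2%).

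The 14129 genes that reached 1 FPKM in any of 15 libraries were fitted on log2(FPKM + 1) with limma 3.58.1 (R 4.3.3), as 1 mean for each of 9 groups and a cell line term, the replicate block, with trended variances (5 residual and 2.155 prior degrees of freedom). Libraries of a number share a cell line by their labels, which is the pairing; differences between lines correlated at 0.07 to 0.38 between groups, except those with RASS (-0.53 to -0.17). States of several groups are means of group means. Comparisons share srNMP, neuron and muscle libraries. Two-sided tests were adjusted over all tested genes at 0.05. The fit was checked on simulated normal values with the same spread in every group, no line effect and changes only in well expressed genes. That check does not cover genes near 0, or a spread in muscle or ESCs unlike that of the other groups. Alternatives were an offset of 0.1 FPKM, no filter, no cell line term, equal summed FPKM, quantile normalization, muscle days as 1 group, only the libraries compared, and leaving out each library; exchanging the RASS lines and leaving RASS out were added after seeing the data. Full statistics went to called genes with a group mean of at least 5 FPKM, up to 10 per direction by size of change, and to the most abundant gene of each class, without p-values for genes that passed the filter through muscle alone; of the processing list, to the largest 4 per direction. The collagen genes and lists were chosen with earlier results of these data known. Promoter sequences are RefSeq's (GRCh38.p14).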

Additional observations from a re-analysis of the deposited data

Results flagged for a closer look

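Values were examined for a library that stood far from the other 3 of its state in 42 sets of 4 libraries (each collagen gene with at least 5 FPKM in a library of neurons, progenitors or srNMPs), and 3 were found. Chance was taken to give such a gap in about 1 of 20 sets, a rate that was not tested on these values. Each state also joins 2 labelled groups. COL2A1 was at 8.87 FPKM in HUES9 dorsal neurons and at 3.37 to 3.94 FPKM in the other neuron libraries. COL9A3 was at 19.2 FPKM in HUES9 ventral neurons and at 1.26 to 2.83 FPKM in the others. COL18A1 was at 31.8 FPKM in H1 ventral neurons and at 7.65 to 10.95 FPKM in the others.

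For 2 genes the lines moved in opposite directions between passage 25 and passage 8 by more than 1 in each line on the log2(FPKM + 1) scale. Other genes also moved in opposite directions, but by less than 1 in at least 1 line. Among them were COL11A1 (-1.01 in H1 and 0.62 in HUES9), COL9A1 (-0.63 and 1.09) and COL6A1 (-0.16 and 1.48). COL14A1 changed by -3.06 in H1 and by 3.79 in HUES9 on the log2(FPKM + 1) scale, a difference of -6.86 between the lines. COL1A2 changed by 1.16 in H1 and by -1.44 in HUES9, a difference of 2.59. With 1 library per line and passage these differences were not tested.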

How the results depend on the processing

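Of the alternatives for genes picked for full statistics, 728 kept their direction and their side of the threshold and 37 lost the call. A further 8 gained one and 0 reversed. These totals include COL21A1, COL6A3 and COL8A2 in the muscle comparisons, which were tested through muscle alone and so had to differ. The collagen counts for muscle below include all 7 genes tested through muscle alone. With 1 library left out at a time, collagen calls numbered 26 to 31 for muscle against srNMPs, 29 to 32 for muscle against neurons, 8 to 16 for neurons against srNMPs, 0 to 3 for progenitors against srNMPs, 7 to 9 for srNMPs against ESCs, 0 for passages and for RASS against RABC, and 1 to 3 for ventral against dorsal neurons. The 3 calls in progenitors (COL23A1, COL8A1 and COL9A1) came without the H1 srNMP library of passage 8, and the 8 calls in neurons came without the H1 dorsal library or the HUES9 srNMP library of passage 25, against 15 with all libraries. Progenitors gained 1 call with an offset of 0.1 FPKM and 1 with quantile normalization, each COL15A1, and 1 with the RASS lines exchanged (COL4A6). With only the libraries compared, srNMPs against ESCs had 2 calls and ventral against dorsal neurons 0, where fewer samples entered the fit. Muscle against srNMPs then had 23 calls, against 30 in the main fit, and muscle against neurons had 31, against 32. The calls lost against srNMPs were those of COL11A1, COL23A1, COL26A1, COL4A1, COL6A1, COL8A1 and COL9A1. Ventral against dorsal neurons had 2 with the RASS lines exchanged. Without the cell line term, which is the replicate block and the pairing of libraries, collagen calls numbered 31, 33, 15, 0, 9, 0, 0 and 1 in the order muscle against srNMPs, muscle against neurons, neurons, progenitors, srNMPs against ESCs, passages, RASS and ventral neurons. COL6A1 was then called between srNMPs and ESCs (limma adjusted p = 0.0476). COL14A1 in neurons against srNMPs was called with an offset of 0.1 FPKM (limma adjusted p = 0.0419), with quantile normalization (0.037), without the H1 srNMP library of passage 25 (0.0302) and without the HUES9 srNMP library of passage 8 (0.0111).

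Calls over all genes fell with only the libraries compared to 1665 from 7034 (muscle against srNMPs), 365 from 2354 (srNMPs against ESCs), and 0 from 484 (progenitors), from 73 (RASS against RABC) and from 288 (ventral against dorsal neurons). Progenitors had 183 without the filter, 772 without the cell line term, 875 with the RASS lines exchanged, 25 without RASS and 45 to 2281 with 1 library left out. RASS against RABC had 46 without the filter, 113 with the lines exchanged and 8 to 73 with 1 library left out; ventral against dorsal neurons had 137 to 412, srNMPs against ESCs 1503 to 2705, muscle against srNMPs 5084 to 7497, muscle against neurons 4541 to 6205, neurons against srNMPs 5400 to 7677 and passages 1 to 5. Scaling to equal summed FPKM moved the share of calls that were higher to 49.4% from 36.5% (muscle against srNMPs), to 72.1% from 55.4% (neurons) and to 62.0% from 50.6% (progenitors). Quantile normalization moved it to 46.2% from 31.3% (muscle against neurons), to 44.8% from 55.4% (neurons) and to 56.6% from 71.9% (ventral neurons). The median change of all genes moved with equal sums to -0.01 from -0.22 (muscle against srNMPs), to 0.29 from 0.05 (neurons) and to 0.15 from 0.02 (progenitors), and with quantile normalization to -0.10 from -0.34 (muscle against neurons). The collagen sum of the ESC library was 257 FPKM at equal sums and 279.5 FPKM after quantile normalization, against 293 FPKM as listed. The mean sum of the muscle libraries was 19003 FPKM at equal sums and 12114 FPKM after quantile normalization, against 17200 FPKM as listed. Muscle had the highest sum of the states under each scaling. The causes were not tested.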
